A study of Caenorhabditis elegans with 30 samples.

Results

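The genes described here are 63 regulators of germline RNA and meiosis in Caenorhabditis elegans, chosen by name and not by their values. They are all genes of the table whose WormBase symbol starts with pgl-, glh-, puf-, fbf-, gld-, oma-, mex-, pos-, nos-, cpb-, cey-, meg-, syp-, him-, htp- or rec-, with a mean of at least 1 read over the 30 libraries. They are 63 of the 46739 genes of the table and of the 16934 genes that reached that mean, and no gene with a matching symbol fell below it. By role, 11 belong to P granules, 10 are PUF proteins, 14 regulate translation and poly(A) tails, 7 act in oocytes and early embryos, 12 build the synaptonemal complex and the chromosome axis, 7 act in pairing, breaks and crossovers, and 2 carry a him- name with another function. On the chromosomes, 18 lie on I, 15 on II, 5 on III, 12 on IV, 7 on V and 6 on X (meg-1, meg-2, meg-3, meg-4, puf-9 and him-4).

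In the worm gonad, germ cells move from a mitotic stem cell zone through meiosis to oocytes, and most control of their genes acts on mRNA that has already been made. RNA-binding proteins hold mRNAs silent until the germ cell reaches the stage that needs the protein, by repressing translation or by shortening or lengthening the poly(A) tail. P granules are RNA and protein bodies at the nuclear pores of germ cells and in the germ lineage of the embryo. Meiotic chromosomes condense along an axis of cohesin and HORMA-domain proteins and are joined by the synaptonemal complex, within which crossovers form. Oocytes carry large stores of these mRNAs into the embryo.

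The series asks how transcripts change after prolonged ethanol exposure and after its removal, and which changes need the SWI/SNF chromatin remodeling gene swsn-9. Plates of about 100 hermaphrodites held ethanol at 0 or 400 mM for 18 h, and whole animals were collected as adults of the first day, giving 5 libraries in each of 6 groups. For wild type (N2) there was a harvest straight after exposure and another after 6 h without ethanol, whereas mutants of swsn-9(ok1354), a deletion allele outcrossed to N2 and kept as strain RA503, were harvested only straight after exposure. Polyadenylated RNA was sequenced as paired reads and counted per gene, with 11812827 to 23505210 counted reads per library (median 16480465). The mutants are of a single strain and have no harvest at 6 h, and whole hermaphrodites also hold somatic tissue, sperm and embryos. All worms were placed on the plates at the L4 stage, and the 0 mM groups were handled in the same way without ethanol. The study's methods state that replicates came from different days, with control and ethanol plates run in parallel. The methods do not state that wild type and mutants were collected or sequenced together.

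The libraries matched their labels at the mutated gene. Transcripts of swsn-9 were counted at 182 to 215 CPM (the count scaled by library depth and by a scaling factor of the library) in the wild-type libraries and at 52.3 to 65.5 CPM in the mutant libraries. All CPM carry the TMM factor (trimmed mean of M-values), which was 0.80 to 1.15 over the 30 libraries, so they are not plain shares of the reads. The factor of 0.80 was that of replicate 1 of wild type at 400 mM and 6 h. The other libraries of its group had 0.971 to 0.997. SDs are over 5 libraries. Of the marker lists for other cells, sperm transcripts varied most: their summed level was 74.00 to 379 CPM in wild type at 0 mM immediately after exposure, 4.30 to 100.3 CPM at 0 mM after 6 h and 28.3 to 455 CPM in mutants at 0 mM. In wild type at 0 mM after 6 h, replicate 5 stood at 100.3 CPM of sperm transcripts, and the other 4 libraries lay between 4.30 and 11.97 CPM. Transcripts of 34 genes listed as made by the embryo's own genome had sums between 231 and 296 CPM in all groups. In wild type at 0 mM immediately after exposure, lin-26 (85.7 CPM) and nhr-23 (69.5 CPM) held much of a mean sum of 283 CPM. Close sums therefore do not show equal embryo content. Between pairs of groups, the median log2 fold change of the list ran from −0.42 (6 h at 0 mM in wild type) to 0.04 (mutants at 400 mM). Among mutants at 0 mM, replicate 5 stood apart, with the lowest summed level of the 63 genes and, at 455 CPM, the highest sum of sperm transcripts.

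The germ cell markers pgl-1, glh-1, syp-1, him-3 and rec-8 were present in every library. For the gene with the highest mean CPM of each family, levels per kilobase of exon are those of wild type at 0 mM. The highest of these genes were cey-2 (a Y-box RNA-binding protein of the germ line, 2126 CPM per kb), pos-1 (a zinc finger repressor of embryonic mRNAs, 656), gld-1 (a KH-domain repressor of translation in meiotic germ cells, 557) and puf-5 (a PUF repressor in oocytes, 507). Next among them in CPM per kb came mex-5 (a zinc finger protein of embryonic polarity, 493), oma-2 (needed for oocyte maturation, 386), glh-1 (a Vasa-like helicase of P granules, 355) and pgl-1 (a P granule scaffold, 281). The meiotic structural genes were lower, with 99.8 CPM per kb for him-1 (the cohesin subunit SMC-1), 98.5 for syp-4 (synaptonemal complex), 54.3 for htp-3 (a HORMA-domain axis protein) and 43.9 for rec-8 (the meiotic cohesin kleisin). Further family heads in CPM per kb were nos-3 (a Nanos protein, 117), cpb-3 (a CPEB protein, 92.4), meg-1 (a disordered P granule protein, 92.6) and fbf-2 (a PUF protein of germline stem cells, 12.5). The lowest members were him-4 (hemicentin, an extracellular matrix protein, 5.08 CPM per kb) and cpb-2 (a CPEB protein, 0.313 CPM per kb). Except for cpb-2, all members had a mean of at least 100 reads per library. Reads with several alignments were not counted, so levels of close paralogs (puf-3 and puf-11, fbf-1 and fbf-2, mex-5 and mex-6, htp-1 and htp-2, cey-2 and cey-3) are uncertain.

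**Figure D1:**
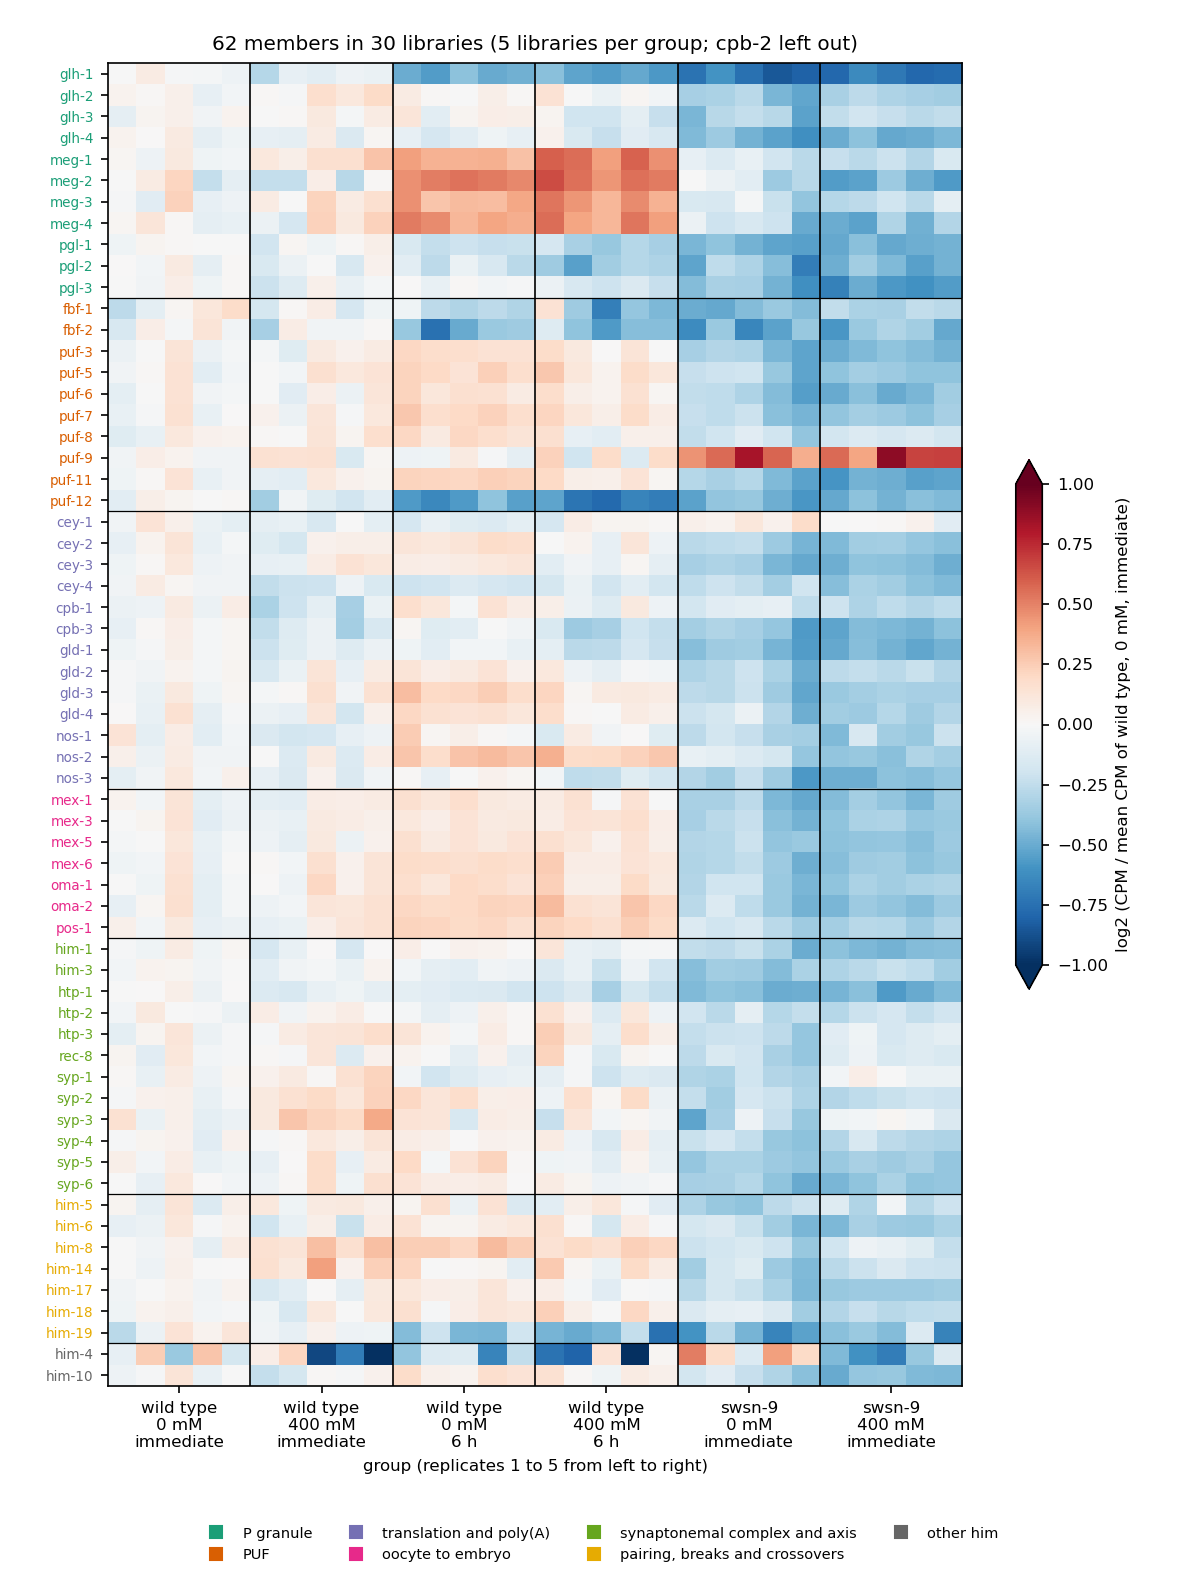
Level of 62 of the 63 genes (rows, by role) in the 30 libraries (columns), as the log2 ratio of CPM to the mean of wild type at 0 mM immediately after exposure; cpb-2, with 0 to 60 reads per library, is left out. The 10 mutant libraries on the right are blue in nearly every row, with puf-9 red and cey-1 and him-4 mixed. The 4 meg rows are red in the wild-type libraries at 6 h.

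The largest difference among the 63 genes was between genotypes. Without ethanol, 58 of the 63 were lower in swsn-9 mutants than in wild type and puf-9 was higher (edgeR's quasi-likelihood test, Benjamini-Hochberg adjusted p under 0.05 over all genes tested). Of all 16934 genes tested, 22.3% were called lower and 23.2% higher in mutants, 45.5% in all. Since most members are well expressed, the nearer background is the 8011 genes with a mean of at least 100 reads, of which 43.0% were called lower, a background added after the levels were seen. The median log2 fold change of the members was −0.31, a level 19.1% lower, beside a median of 0.06 over all genes tested, and −0.11 over the 8011 genes. Under RLE and upper-quartile scaling 59 of the 63 fold changes were below 0. In 52 members every mutant library lay below every wild-type library, which held for 15% of all genes tested, and in 1 every mutant library lay above (15.2% of all genes). The summed level of the 63 genes was 20099, 20709, 21896, 19772 and 20320 CPM in wild type and 16726, 17091, 17185, 15781 and 15008 CPM in mutants. The groups did not overlap, and mutant replicate 5 was the lowest. As a plain share of the counted reads, the 63 genes took 1.86 to 2.07% in wild type and 1.69 to 1.77% in mutants, again without overlap. With library totals alone as the scale, an alternative added after the TMM factors were seen, the medians were −0.15 for the members and 0.21 for all genes, 57 of the 63 fold changes were below 0, and 36 members were called lower and 2 higher. The share of higher calls among all genes was then 79.8% against 51% with TMM. A change of scale moves all genes by about the same amount, so the gap of −0.37 between the members and all genes could not change with it and is no check. The size of the decrease depended on the scale. In whole animals, fewer germ cells and less RNA per germ cell cannot be told apart. Whether the genotypes were collected and sequenced together is not stated in the study's methods. The part of a difference in collection or sequencing in the lower levels of the mutants was not tested.

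Of the P granule genes 10 of 11 were lower, with a median log2 fold change of −0.38. The transcript of glh-1 (WBGene00001598, chromosome I) was at 978, 1041, 976, 972 and 949.6 CPM in replicates 1 to 5 of wild type and at 590.4, 649.5, 588, 545 and 562 CPM in mutants. The groups were far apart, and the highest mutant library lay below the lowest wild-type one. The level was 40.3% lower (log2 fold change −0.74, SE 0.0467, adjusted p = 1.34e-13). Its partner in P granules, pgl-1 (WBGene00003992, chromosome IV, 6974441 to 6977318 of WBcel235), had 680.1, 715, 707, 698 and 698 CPM in wild type and 509, 529, 504, 485 and 479 CPM in mutants. These groups did not overlap either (log2 fold change −0.48, SE 0.0415, adjusted p = 1.28e-10). Another gene of this role, glh-4 (another Vasa-like helicase), had 296, 289.5, 308, 271 and 281 CPM in wild type and 213, 224, 208, 199.9 and 189 CPM in mutants (log2 fold change −0.48, SE 0.0496, adjusted p = 3.77e-09), again without overlap. The other P granule genes called lower ranged from −0.44 (pgl-2) to −0.15 (meg-1) in log2 fold change, and meg-2 missed the threshold (−0.16, adjusted p = 0.0962).

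All 12 genes of the synaptonemal complex and axis were lower, with log2 fold changes from −0.45 to −0.21. The HORMA-domain gene htp-1 (WBGene00002032, chromosome IV, 5390189 to 5391557) had 118, 118.8, 123, 114 and 118.7 CPM in wild type and 87.2, 89.9, 88.9, 83.9 and 84.6 CPM in mutants. No mutant library reached the wild-type range (log2 fold change −0.45, SE 0.0379, adjusted p = 8.64e-11). Another HORMA-domain gene of the axis, him-3 (chromosome IV, 6977508 to 6978765), had 123, 129, 128, 122 and 125 CPM in wild type and 93.5, 98.9, 98.4, 93.2 and 101 CPM in mutants (log2 fold change −0.37, SE 0.0375, adjusted p = 2.61e-09). Its groups did not overlap. The cohesin genes him-1 (−0.31) and rec-8 (−0.26) and all 6 syp genes (−0.37 to −0.25 in log2 fold change) were called too. The 7 genes of pairing, breaks and crossovers were all lower, from −0.50 (him-19, needed for meiotic recombination) to −0.16 (him-18, the worm SLX4), with him-8 at −0.23, him-6 (the BLM helicase) at −0.27 and him-14 (MSH4) at −0.29.

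Of the regulators of translation and poly(A) tails 12 of 14 were lower. The repressor gld-1 had 1197, 1226, 1284, 1222 and 1252 CPM in wild type and 918, 968, 971, 896 and 837 CPM in mutants, with no overlap (log2 fold change −0.43, SE 0.0406, adjusted p = 7.56e-10). The cytoplasmic poly(A) polymerase genes gld-2 (−0.32) and gld-4 (−0.24) and the gld-2 partner gene gld-3 (−0.32) were lower, as were nos-1, nos-2 and nos-3 (−0.27, −0.17 and −0.35 in log2 fold change). Of the Y-box genes, cey-2, cey-3 and cey-4 were lower (−0.32, −0.38 and −0.25), and cey-1 was not called (0.09, adjusted p = 0.132). The other gene not called here was cpb-2 (0.27, adjusted p = 0.703). All 7 oocyte and embryo regulators were lower within a narrow range, from −0.37 (mex-1) to −0.22 (pos-1).

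Of the PUF genes, 9 of 10 were lower in mutants and puf-9 was the only member of the 63 called higher. The product of puf-9 is known as a repressor in somatic tissues, among them the epidermis. Its transcript (WBGene00004245, chromosome X, 5841592 to 5845987) was at 27.7, 29.8, 29.1, 27.7 and 27.7 CPM in wild type and at 38.8, 41.9, 50.4, 42.5 and 36.6 CPM in mutants. The lowest mutant library exceeded the highest wild-type library, and mutants varied more (42.04 ± 5.26 against 28.4 ± 0.996 CPM, mean ± SD, n = 5). The level was 47.8% higher (log2 fold change 0.56, SE 0.0891, adjusted p = 5.93e-06). Among the PUF genes that were lower, log2 fold changes ran from −0.51 (fbf-2) to −0.23 (puf-8, which acts in germline stem cells and spermatocytes). The remaining member not called was him-4, a gene of the extracellular matrix with 80.2, 101, 65.8, 103 and 75.2 CPM in wild type and 121, 96.3, 77.4, 112.97 and 97.03 CPM in mutants (0.25, adjusted p = 0.368), whose groups overlapped.

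Other germline genes, from lists compiled with earlier results known, were lower as well. Of 35 further regulators of germline mRNA, 31 were lower and 1 higher, with the stress granule protein gene gtbp-1 at −0.41 and pab-2, a poly(A)-binding protein, at 0.89 in log2 fold change. Of 28 genes of germline small RNA pathways 25 were lower, including the Argonaute genes csr-1 (−0.54) and wago-4 (−0.54), and of 45 further meiosis genes 41 were lower, including cra-1 (−0.49). Several somatic lists were higher in mutants. The summed level of 10 body muscle markers was 3146 to 4525 CPM in wild type and 4369.8 to 5839 CPM in mutants, with 7 of 10 genes called higher and overlapping sums, and that of 10 neuron markers was 247 to 269 and 317.5 to 346 CPM, with 9 of 10 called higher and no overlap. The sums of 10 gonad sheath and spermatheca markers (1194 to 1262 and 1173 to 1282 CPM) and of 10 intestine markers (2309 to 3194 and 2574 to 2979.6 CPM) overlapped between genotypes, with 3 genes higher and 1 lower in the first list and 3 higher in the second. In wild type, fln-1 (816 CPM) held much of the mean sheath and spermatheca sum of 1219 CPM. Close sums therefore do not show equal sheath content. The gene called lower was inx-8, with means of 102 CPM in wild type and 48.0 CPM in mutants (log2 fold change −1.08). Of 10 hypodermis markers 6 were called higher (median log2 fold change 3.51), with overlapping sums too. Most reads of this list came from the collagen genes col-119, col-140 and col-19. The genes called higher with the smallest p were low in wild type, with means of 0.218 CPM in wild type and 14.7 CPM in mutants for dpy-7. For sqt-3 the means were 4.34 and 134.7 CPM. Whether the genotypes were at the same stage was not tested. Every gene of these 5 lists was detected in both groups. The part of these somatic levels in the lower germline levels was not tested.

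At 400 mM ethanol, a comparison added after other results had been seen, 57 of the 63 genes were lower in mutants and puf-9 was higher. Of all genes tested, 25.6% were called lower and 26.8% higher (52.4% in all), and of the 8011 genes with at least 100 reads 49.5% were called lower. The median log2 fold change of the members was −0.36 beside 0.14 over all genes and −0.15 over those 8011 genes. In 53 members every mutant library lay below every wild-type one and in 2 above, against 19.2% and 17.2% of all genes. The members took 1.90 to 2.08% of the counted reads in wild type and 1.70 to 1.76% in mutants. With library totals alone, 43 members were called lower and 3 higher, with medians of −0.19 for the members and 0.30 for all genes, and 75.5% of all calls were higher, against 51.2% with TMM. For glh-1 the mutants had 572, 632, 600.4, 570.3 and 577 CPM against 806, 928, 912, 948 and 937 CPM in wild type (log2 fold change −0.62, SE 0.0466, adjusted p = 6.50e-12), for pgl-1 489, 523, 491, 499 and 505 against 611, 709, 678, 705 and 729.8 CPM (log2 fold change −0.45, SE 0.0415, adjusted p = 2.93e-10), and for htp-1 85.8, 88.7, 79.9, 83.8 and 87.4 against 108, 106, 112, 115.2 and 112 CPM (log2 fold change −0.38, SE 0.0377, adjusted p = 1.38e-09). None of these groups overlapped. The oocyte regulator puf-11 had 304, 329, 326, 315 and 318 CPM in mutants and 429.9, 425, 492, 473 and 466 CPM in wild type (log2 fold change −0.52, SE 0.0482, adjusted p = 3.45e-10). For the P granule scaffold pgl-3 the values were 228, 258, 245, 239 and 247 and 314, 333, 377, 346 and 359.8 CPM (log2 fold change −0.51, SE 0.0491, adjusted p = 8.21e-10), and for cey-3 they were 651, 689, 687, 675 and 652 and 864, 868, 961, 1008 and 989 CPM (log2 fold change −0.48, SE 0.0451, adjusted p = 4.12e-10). All 3 were lower in every mutant library than in any wild-type library. The transcript of puf-9 was at 41.96, 37.4, 52.8, 45.3 and 45.6 CPM in mutants and at 31.5, 31.3, 31.6, 25.6 and 28.7 CPM in wild type, without overlap (log2 fold change 0.59, SE 0.0875, adjusted p = 1.77e-06). The genes not called were fbf-1 (−0.22, adjusted p = 0.0515), cpb-1, cpb-2, cey-1 and him-4, so all 11 P granule genes were called lower here, meg-2 included (−0.38, adjusted p = 0.000114). Markers of other cells differed here too. Called higher in mutants were 8 of 10 neuron, 7 of 10 intestine, 6 of 10 body muscle and 6 of 10 hypodermis markers, with none lower, 2 of 10 sheath and spermatheca markers with 1 lower, 12 of 34 embryo genes with 6 lower, and 2 of 36 sperm genes. The intestine sums were 2655 to 3258 CPM in wild type and 4247 to 5091 CPM in mutants, without overlap. The part of these markers in the values of the members was not tested. Nor was the part of any difference between genotypes in collection or sequencing.

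**Figure D2:**
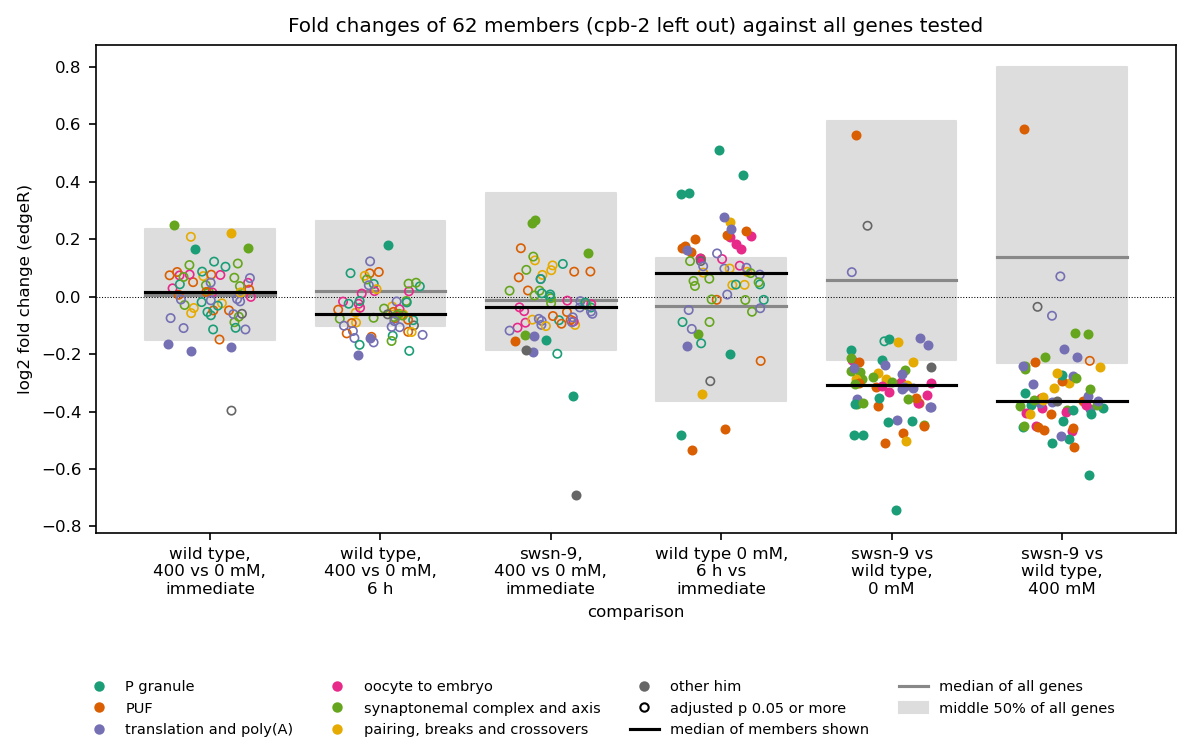
Log2 fold change of 62 of the 63 genes (points, colored by role; filled where the adjusted p is under 0.05) in 6 comparisons, with the median of the plotted members (black line), the median of all genes tested (gray line) and the middle 50% of all genes (gray box). cpb-2 is left out. The members lie near 0 in the 3 ethanol comparisons and are shifted down in the 2 genotype comparisons, where puf-9 is the filled point above 0.

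In wild type at 0 mM, 26 of the 63 genes differed between the harvest 6 h after removal and the immediate one, 19 of them higher at 6 h and 7 lower (edgeR's quasi-likelihood test, Benjamini-Hochberg adjusted). Of all 16210 genes tested, 8.19% were called higher and 10.9% lower (19.1% in all), and among the genes with at least 100 reads 15.4% were higher and 11.6% lower. The median log2 fold change of the members was 0.08 beside −0.03 over all genes and 0.04 over those with at least 100 reads. In 16 members all libraries at 6 h were above the earlier ones and in 6 all were below, against 5.6% and 6.55% of all genes tested. By role, 5 of 7 oocyte and embryo regulators, 6 of 10 PUF genes and 4 of 11 P granule genes rose, whereas none of the 12 genes of the synaptonemal complex and axis rose and htp-1 fell (−0.13, adjusted p = 0.0271). The worms at 6 h were older by that time and had been moved to plates without ethanol, so age and handling cannot be told apart here.

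The 4 meg genes, whose disordered proteins assemble and stabilize P granules in the embryo, rose together. The transcript of meg-1 (WBGene00010492, chromosome X, 13927036 to 13929634) went from 222, 211, 234, 213 and 215 CPM to 291, 279, 279, 281 and 268 CPM (log2 fold change 0.36, SE 0.0473, adjusted p = 2.37e-05). Its neighbor meg-2 (13922643 to 13926129 on the same chromosome) went from 40.2, 42.6, 46.7, 34.3 and 37.8 to 55.4, 57.5, 58.6, 57.8 and 56.3 CPM, a level 42.5% higher (log2 fold change 0.51, SE 0.0753, adjusted p = 9.08e-05). The values of meg-3 were 94.3, 87.7, 112, 89.7 and 91.9 CPM and then 130.1, 115.1, 118, 117 and 125 CPM (log2 fold change 0.36, SE 0.0617, adjusted p = 0.000445). For all of these the lowest library at 6 h exceeded the highest immediate one. The same held for meg-4, with 53.7, 57.8, 53.5, 49.7 and 50.4 CPM immediately and 75.8, 73.4, 66.6, 69.5 and 68.3 CPM at 6 h (log2 fold change 0.42, SE 0.0699, adjusted p = 0.000292).

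Of the other 15 genes that rose, 11 were PUF genes or regulators of oocytes and embryos. The Nanos gene nos-2, whose mRNA is loaded into oocytes and translated in the embryonic germ lineage, had 114.9, 107, 117, 108 and 108 CPM immediately and 135, 125, 136, 138 and 135 CPM at 6 h (log2 fold change 0.28, SE 0.0514, adjusted p = 0.000929). The X chromosome pairing protein gene him-8 (WBGene00001867, chromosome IV, 10561905 to 10563974) had 47.7, 46.7, 49.05, 44.7 and 50.5 CPM and then 56.6, 56.7, 55.04, 59.5 and 56.5 CPM (log2 fold change 0.26, SE 0.0486, adjusted p = 0.000916). In neither gene did the groups overlap. Smaller rises were called for gld-3 (0.24), puf-11 (0.23), puf-7 (0.21), oma-2 (0.21), pos-1 (0.21), puf-5 (0.20), mex-6 (0.18), puf-3 (0.18), puf-8 (0.17), oma-1 (0.17), gld-4 (0.16), puf-6 (0.15) and mex-5 (0.13) on the log2 scale. The exons of nos-2 and of him-14 on the opposite strand share 154 bases, and him-14 itself was at 0.04 (adjusted p = 0.749).

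Of the 7 genes that fell, 6 are given by library. The P granule helicase glh-1 fell from 978, 1041, 976, 972 and 949.6 CPM to 697, 669, 741, 694 and 703 CPM, a level 28.3% lower (log2 fold change −0.48, SE 0.0432, adjusted p = 1.67e-07). The scaffold pgl-1 fell from 680.1, 715, 707, 698 and 698 to 629, 593, 608, 596 and 601 CPM (log2 fold change −0.20, SE 0.0431, adjusted p = 0.00278). The groups did not overlap in either gene, so within the P granule genes glh-1 and pgl-1 fell while the meg genes rose. The PUF gene puf-12, related to a nucleolar protein of yeast and humans, had 285, 319, 312, 305 and 309 CPM and then 207, 196, 206, 231 and 210.4 CPM (log2 fold change −0.53, SE 0.0549, adjusted p = 9.37e-07). The stem cell regulator fbf-2 had 25.6, 29.9, 28.2, 31.3 and 27.9 CPM and then 21.9, 16.995, 20.2, 22.1 and 22.3 CPM (log2 fold change −0.46, SE 0.0886, adjusted p = 0.00128), again without overlap. Its paralog fbf-1 was not called (−0.22, adjusted p = 0.17). The Y-box gene cey-4 had 766, 833, 796, 767 and 766 CPM and then 679, 689, 714, 697 and 689 CPM (log2 fold change −0.17, SE 0.0400, adjusted p = 0.00496), and him-19 had 10.8, 12.4, 14.3, 13.3 and 14.2 CPM and then 9.60, 11.2, 9.46, 9.40 and 11.3 CPM (log2 fold change −0.34, SE 0.102, adjusted p = 0.0224), overlapping between groups. The call of him-19 was lost without wild-type 0 mM replicates 4 or 5 or 0 mM 6 h replicates 1, 3 or 4 (adjusted p from 0.0514 to 0.0602), and exons of him-19 share 310 bases with another gene on the opposite strand. On the scale of library totals, him-19 (adjusted p = 0.0546) and cey-4 (adjusted p = 0.103) missed the threshold, and 19 members were called higher and 4 lower. Of 36 sperm genes 32 also fell over this time. Of 34 embryo genes 8 fell and 2 rose, of 10 intestine markers 4 fell and 1 rose, and 4 of 10 sheath and spermatheca, 2 of 10 body muscle and 1 of 10 hypodermis markers fell, while no neuron marker was called. The part of these markers in the changes of the members was not tested.

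**Figure D3:**
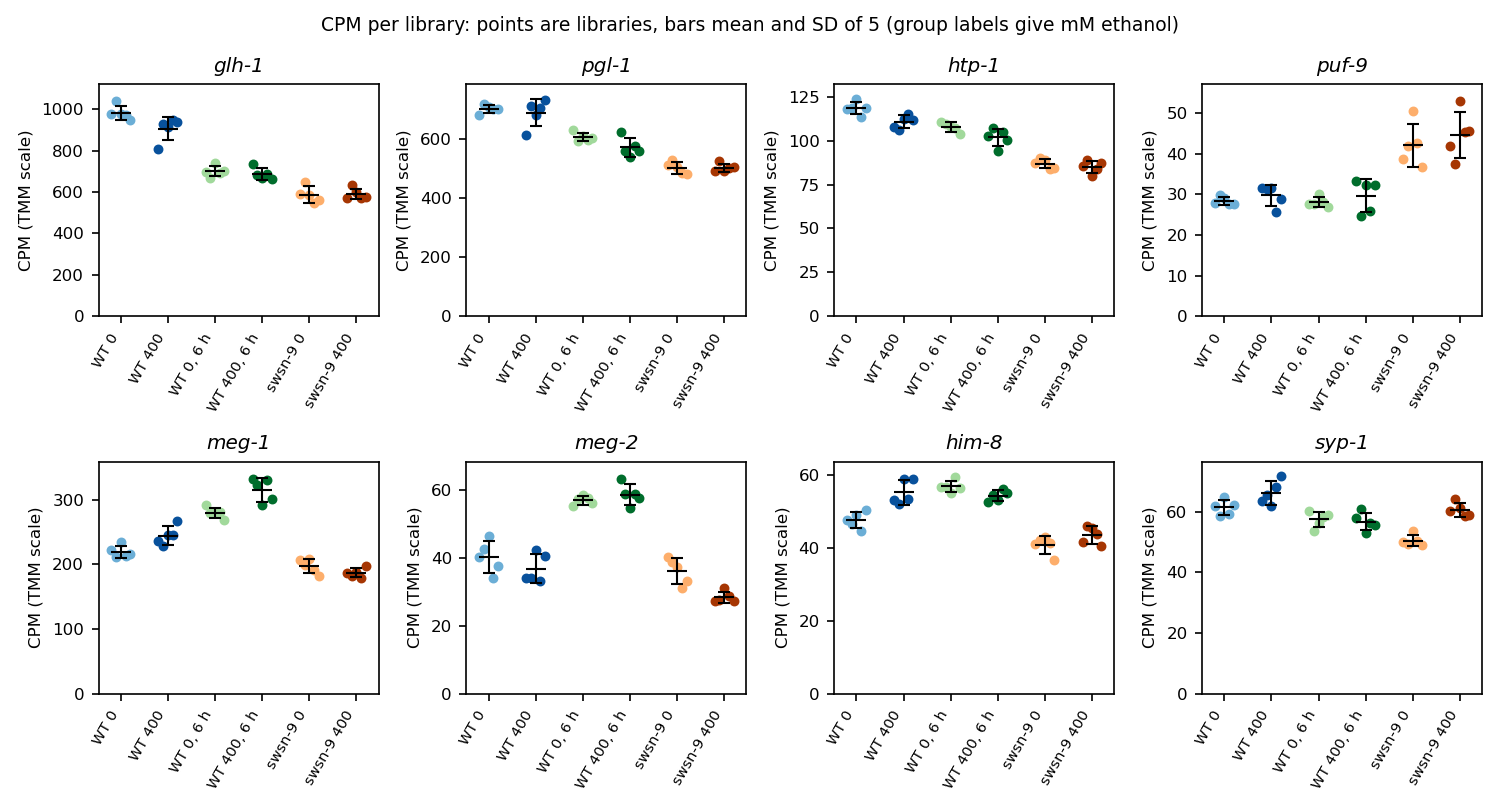
CPM of 8 genes in each library (points) with the mean and SD of the 5 libraries per group (bars), for wild type (WT) and swsn-9 mutants at 0 or 400 mM ethanol, immediately after exposure or 6 h later. The levels of glh-1, pgl-1 and htp-1 are lowest in mutants, puf-9 is highest there, and meg-1 and meg-2 are highest in wild type at 6 h; every axis starts at 0.

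Immediately after exposure in wild type, 4 of the 63 rose and 3 fell, 11.1% of the members against 12.8% of all 16210 genes tested (6.81% higher and 5.94% lower). Among the genes with at least 100 reads the share was 16.7% (9.19% higher and 7.46% lower). All exposed libraries were above all controls in 2 members and below in 4, against 4.69% and 4.35% of all genes. The median log2 fold change of the members was 0.01 beside 0.01 over all genes and −0.01 over those with at least 100 reads. The genes that rose were him-8, syp-2, syp-3 and meg-1, and those that fell were cey-4, cpb-1 and cpb-3. Most genes of the same roles were not called. These were 10 of 12 of the synaptonemal complex and axis and 6 of 7 of pairing, breaks and crossovers. The same held for 10 of 11 P granule genes and 11 of 14 regulators of translation and poly(A) tails. None of the PUF genes and none of the oocyte and embryo regulators was called, and 14 of the 63 had an unadjusted p under 0.05.

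The smallest adjusted p was that of him-8, which rose from 47.7, 46.7, 49.05, 44.7 and 50.5 CPM at 0 mM to 53.04, 52.1, 58.8, 53.3 and 58.9 CPM at 400 mM (log2 fold change 0.22, SE 0.0486, adjusted p = 0.00313). All exposed libraries were above all controls. The synaptonemal complex gene syp-3 had 23.1, 19.8, 21.4, 19.4 and 19.9 CPM at 0 mM and 22.2, 25.2, 24.1, 23.7 and 26.98 CPM at 400 mM (log2 fold change 0.25, SE 0.0766, adjusted p = 0.0323), with replicate 1 of the controls inside the exposed range. Its partner syp-2 had 54.4, 56.5, 56.7, 52.1 and 54.5 CPM and 58.7, 61.1, 62.5, 59.2 and 64.3 CPM (log2 fold change 0.17, SE 0.0528, adjusted p = 0.037), without overlap. For meg-1 the exposed libraries had 236, 228, 245, 245 and 267 CPM against 222, 211, 234, 213 and 215 CPM, overlapping in range (log2 fold change 0.16, SE 0.0473, adjusted p = 0.0223). The calls of syp-3, syp-2 and meg-1 were lost without single libraries. For syp-3 these were wild-type 0 mM replicates 2, 4 or 5 or wild-type 400 mM replicates 2 or 5 (adjusted p from 0.0529 to 0.0856), for syp-2 wild-type 0 mM replicates 1, 2, 4 or 5 or wild-type 400 mM replicates 3 or 5 (adjusted p from 0.0522 to 0.093), and for meg-1 wild-type 0 mM replicates 2 or 4 or wild-type 400 mM replicate 5 (adjusted p from 0.0539 to 0.0681). The call of syp-3 was also lost with only the groups compared (adjusted p = 0.0541) and that of syp-2 with no filter on low counts (adjusted p = 0.0536).

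Among the genes that fell, cey-4 had 766, 833, 796, 767 and 766 CPM at 0 mM and 662, 675, 679, 758 and 706 CPM at 400 mM (log2 fold change −0.17, SE 0.0400, adjusted p = 0.00679). The CPEB gene cpb-1, needed for sperm formation, had 79.2, 79.3, 87.3, 78.9 and 86.6 CPM and 66.1, 71.1, 76.99, 65.5 and 78.7 CPM (log2 fold change −0.19, SE 0.0589, adjusted p = 0.0366). In both genes every exposed library was below every control. Another CPEB gene, cpb-3, had 245, 261, 271, 256 and 262 CPM and 218, 237, 248, 205 and 232 CPM and overlapped at 1 library (log2 fold change −0.17, SE 0.0512, adjusted p = 0.025). The calls of these CPEB genes also rested on single libraries. The call of cpb-1 was lost without wild-type 0 mM replicates 3 or 5 or wild-type 400 mM replicates 1, 2 or 4 (adjusted p from 0.063 to 0.0984), and that of cpb-3 without wild-type 0 mM replicates 3 or 5 or wild-type 400 mM replicates 1 or 4 (adjusted p from 0.0502 to 0.0784). With only the groups compared cpb-1 also missed the threshold (adjusted p = 0.0552). On the scale of library totals alone none of the 63 was called lower and 4 were called higher, meg-1 and him-8 among them, so the calls of the falling genes and of both syp genes depended on the scale (adjusted p from 0.0612 to 0.256). Of all calls 66.6% were then higher, against 53.4% with TMM. The number of members called dropped from 7 to 4 without wild-type 0 mM replicate 2 or 4 or 400 mM replicate 5, and to 3 without 0 mM replicate 5. Of the other germline lists, 7 of 35 mRNA regulators fell, with pab-1, a poly(A)-binding protein, at −0.25, and the nuclear Argonaute gene hrde-1 of the small RNA list fell too (−0.27). Of 34 genes transcribed in the embryo 10 fell and 1 rose here, with sums of 275 to 296 CPM at 0 mM and 252 to 273 CPM at 400 mM, and their part in the changes of the members was not tested.

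At 6 h after removal (edgeR's quasi-likelihood test, Benjamini-Hochberg adjusted), 1 member was higher and 3 were lower in ethanol-exposed wild type, 6.35% of the members against 3.94% of all genes tested (2.78% higher and 1.16% lower). Of the genes with at least 100 reads 6.63% were called (4.57% higher and 2.06% lower). The groups did not overlap in 1 member that was higher and 5 that were lower, against 3.6% and 2.87% of all genes. The median log2 fold change of the members was −0.06, with 47 of 63 below 0, beside 0.02 over all genes and −0.01 over those with at least 100 reads. The P granule gene meg-1 was again higher, at 291, 279, 279, 281 and 268 CPM without and 332, 323, 291, 330.0 and 300.3 CPM after ethanol (log2 fold change 0.18, SE 0.0470, adjusted p = 0.03). Of its exposed libraries, the lowest lay just above the highest control. The CPEB gene cpb-3 was again lower, at 262, 238, 241, 259 and 253 and 233, 201, 206, 225 and 219.8 CPM without overlap (log2 fold change −0.20, SE 0.0512, adjusted p = 0.0248), and gld-1 was lower with overlap at 1 library, at 1199.5, 1150.5, 1211, 1216 and 1177 and 1152, 1028, 1034, 1098 and 1056 CPM (log2 fold change −0.14, SE 0.0395, adjusted p = 0.0385). The remaining gene, cpb-2, is described with its read counts.

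These calls depended on single libraries. No member passed without 0 mM 6 h replicate 4 or without 400 mM 6 h replicate 2, although 15 and 19 of the 63 then had an unadjusted p under 0.05, and 1 or 2 passed without 0 mM 6 h replicate 1 or 3 or 400 mM 6 h replicate 3, 4 or 5, while 7 passed without 0 mM 6 h replicate 2. The call of meg-1 was lost without 0 mM 6 h replicates 2, 3, 4 or 5 or 400 mM 6 h replicates 1, 2 or 4 (adjusted p from 0.0539 to 0.108), that of cpb-3 without 0 mM 6 h replicates 1 or 4 or 400 mM 6 h replicates 2 or 5 (adjusted p from 0.0505 to 0.0692), and that of gld-1 without 0 mM 6 h replicates 1, 3 or 4 or 400 mM 6 h replicates 2, 3 or 5 (adjusted p from 0.0622 to 0.0968). With upper-quartile scaling 7 members passed (1 higher and 6 lower), and with DESeq2 8 passed (1 higher and 7 lower). The share of higher calls among all genes moved from 70.6% to 57.9% with upper-quartile scaling, 60.4% with RLE scaling and 54.2% with DESeq2. It was 54.8% with library totals alone, when 6 members were called, all lower, gld-1 and cpb-3 among them and meg-1 not (adjusted p = 0.19). With no filter on low counts, meg-1 (adjusted p = 0.0627) and gld-1 (adjusted p = 0.0554) missed the threshold. Of 10 intestine markers 4 were called higher after ethanol at 6 h, and their part in these values was not tested.

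The ethanol effect at 6 h differed from the effect immediately after exposure at 3 members, 4.76% of the 63 against 5.28% of all genes tested (3.1% with a higher and 2.18% with a lower effect at 6 h), by the interaction of ethanol and time in edgeR's quasi-likelihood test. For him-8 the difference at 6 h was −0.06, from 56.6, 56.7, 55.04, 59.5 and 56.5 CPM without to 52.7, 54.5, 52.99, 56.2 and 55.2 CPM after ethanol, beside 0.22 immediately, so that the effect was lower by 0.28 on the log2 scale (log2 fold change −0.28, SE 0.0682, adjusted p = 0.0136). For cey-4 the difference was 0.04 at 6 h (696, 749, 687, 731 and 691 CPM after ethanol) and −0.17 immediately (log2 fold change 0.21, SE 0.0566, adjusted p = 0.0324). The call of cey-4 was lost without wild-type 0 mM replicate 2 or wild-type 400 mM replicates 1, 3 or 5 or 0 mM 6 h replicates 1, 2, 4 or 5 or 400 mM 6 h replicates 2 or 4 (adjusted p from 0.054 to 0.111). Without 0 mM 6 h replicate 5, him-8 alone was called, and without 400 mM replicate 1 or 400 mM 6 h replicate 1 the calls were 5 and 6. With no filter on low counts cey-4 missed the threshold (adjusted p = 0.107). Under library totals 5 members were called, all with a lower effect at 6 h, him-8 and cpb-2 among them and cey-4 not (adjusted p = 0.489), and 284 of all 710 calls were then of a higher effect, against 58.8% of calls with TMM. The third gene was cpb-2.

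In swsn-9 mutants, 4 of the 63 genes rose and 8 fell with ethanol, 19.05% of the members against 24.3% of all 16934 genes tested (10.1% higher and 14.3% lower). Among the genes with at least 100 reads 33.7% were called. The exposed libraries were all above the controls in 3 members and all below in 2, against 7.91% and 9.01% of all genes. The median log2 fold change of the members was −0.04 beside −0.01 over all genes and −0.06 over those with at least 100 reads. Of the 4 that rose, 3 belong to the synaptonemal complex or the axis and the other is cpb-2. Of the 12 genes of the synaptonemal complex and axis, 8 were not called and 1 fell. The synaptonemal complex gene syp-1 (WBGene00006375, chromosome V, 16404274 to 16407701) had 50.1, 49.3, 53.6, 50.3 and 49.1 CPM at 0 mM and 60.3, 64.3, 61.3, 58.6 and 58.8 CPM at 400 mM (log2 fold change 0.27, SE 0.0455, adjusted p = 6.33e-05). Every exposed library was above every control, and replicate 3 of the controls was the highest of them. Exons of syp-1 share 517 bases with F13A7.14 on the same strand, and F13A7.14 was at −0.08 (adjusted p = 0.296). For syp-3 the values were 14.4, 16.5, 20.00, 17.6 and 15.96 and 20.1, 20.4, 20.96, 20.4 and 18.8 CPM with overlap (log2 fold change 0.26, SE 0.0778, adjusted p = 0.016), and for the axis gene htp-3 they were 108, 109.8, 110.5, 106 and 97.3 and 118, 124, 114, 116 and 118.8 CPM without overlap (log2 fold change 0.15, SE 0.0510, adjusted p = 0.0281).

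The genes that fell in mutants included meg-2, nos-2, cey-4, puf-11, pgl-3, him-1 and both him genes of other function. For meg-2 the libraries had 40.3, 38.8, 37.4, 31.3 and 33.3 CPM at 0 mM and 27.3, 27.8, 31.3, 28.8 and 27.2 CPM at 400 mM, a level 21.3% lower (log2 fold change −0.35, SE 0.0759, adjusted p = 0.00112). The highest exposed library was just under the lowest control. The Nanos gene nos-2 had 106, 104, 101, 98.6 and 84.9 and 84.6, 85.6, 83.3, 90.1 and 87.97 CPM (log2 fold change −0.19, SE 0.0524, adjusted p = 0.00702), and cey-4 had 659, 680.3, 662, 622 and 683 and 586, 632, 618, 592 and 579 CPM (log2 fold change −0.14, SE 0.0391, adjusted p = 0.0101). In both, the ranges overlapped. The kinetochore gene him-10 (the worm Nuf2) had 100.3, 106, 97.2, 92.6 and 85.3 and 80.4, 87.3, 87.7, 84.1 and 83.7 CPM, overlapping (log2 fold change −0.18, SE 0.0551, adjusted p = 0.0142). The hemicentin gene him-4 (chromosome X, 9717565 to 9753764) had 121, 96.3, 77.4, 112.97 and 97.03 CPM at 0 mM and 62.6, 55.9, 52.6, 65.5 and 76.9 CPM at 400 mM, the largest change among members with a mean over 100 reads, without overlap (log2 fold change −0.69, SE 0.213, adjusted p = 0.0173). For puf-11 the values were 376, 365, 375, 338 and 317 and 304, 329, 326, 315 and 318 CPM, overlapping (log2 fold change −0.15, SE 0.0482, adjusted p = 0.0189). With only the groups compared, the calls of puf-11 (adjusted p = 0.0633) and cey-4 (adjusted p = 0.0797) were lost. Of 10 intestine markers 7 were called higher and 2 lower with ethanol in mutants, with sums of 2574 to 2979.6 and 4247 to 5091 CPM. Of 10 body muscle markers 3 were lower and none higher, with overlapping sums of 4369.8 to 5839 and 4158 to 5231 CPM. The part of these markers in the changes of the members, him-4 included, was not tested.

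The count in mutants depended on single libraries. Without mutant 0 mM replicate 5, whose germline sum was lowest and sperm sum highest of its group, 28 members were called, 26 of them lower. Without mutant 400 mM replicate 5 the count was 20 (17 lower). With upper-quartile scaling 8 rose and 7 fell, and with only the 10 mutant libraries in the fit 8 rose and 4 fell, so the balance of directions among the members changed with the scaling and the fit. It turned with library totals alone, where 12 members were called higher and only meg-2 lower, while him-4, puf-11, nos-2, him-10 and cey-4 missed the threshold (adjusted p from 0.0508 to 0.417), and 63.7% of all calls were higher. Over all genes the share of higher calls moved from 41.3% to 52.0% with only the 10 mutant libraries. The call of syp-3 was lost without mutant 0 mM replicates 1, 2 or 5 or mutant 400 mM replicates 1, 2, 3 or 4 (adjusted p from 0.0541 to 0.113), and that of htp-3 without mutant 0 mM replicates 1, 2, 3 or 5 or mutant 400 mM replicates 1, 2, 3, 4 or 5 (adjusted p from 0.0896 to 0.209).

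The ethanol effect differed between genotypes at 1 member, 1.59% of the 63 against 4.15% of all genes tested (1.4% with a higher and 2.75% with a lower effect in mutants). This was meg-1, at 207, 199, 209, 191 and 182 CPM in mutants at 0 mM and 186, 182, 189, 179 and 197 CPM in mutants at 400 mM. The mutant ranges overlapped, with means of 198 ± 11.3 and 187 ± 7.04 CPM (SD, n = 5), while in wild type ethanol raised the mean from 219 ± 9.21 to 244 ± 14.7 CPM. The interaction of ethanol and genotype passed the threshold (log2 fold change −0.24, SE 0.0650, adjusted p = 0.0291, edgeR's quasi-likelihood test), and 11 of the 63 had an unadjusted p under 0.05. It missed the threshold without wild-type 0 mM replicates 2, 4 or 5 or wild-type 400 mM replicate 5 (adjusted p from 0.0513 to 0.0725), when no member was called and 5 to 10 had an unadjusted p under 0.05. It also missed the threshold with only the groups compared (adjusted p = 0.0892), when no member was called and 9 had an unadjusted p under 0.05, and with library totals alone (adjusted p = 0.0862), when none was called and 11 had one. Without mutant 0 mM replicate 5 the members called were 7, all lower, and without mutant 400 mM replicate 3 or 5 they were 2. The other genes called in 1 genotype only, such as syp-1 and him-4 in mutants or cpb-1 in wild type, were not called different between genotypes.

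The CPEB family gene cpb-2 (WBGene00000771, chromosome II, 6192784 to 6195170) was near the limit of detection and is given as reads per library. In wild type the counts were 7, 11, 0, 19 and 4 at 0 mM and 13, 16, 12, 16 and 18 at 400 mM immediately after exposure. At 6 h they were 3, 3, 1, 2 and 8 at 0 mM and 0, 0, 1, 0 and 0 at 400 mM. No library at 400 mM and 6 h held more than 1 read. Together the 5 libraries held 17 and 1 reads at 6 h, a ratio of 0.0496 for 400 to 0 mM with an exact 95% interval of 0.00119 to 0.317 that covers counting error only. The fitted effect at 6 h (log2 fold change −3.58, SE 0.999, adjusted p = 0.0432) and the interaction with time (log2 fold change −4.26, SE 1.12, adjusted p = 0.0243) come from edgeR's quasi-likelihood test, depend on the prior count and are no bounds. The first call was lost without 0 mM 6 h replicates 1, 2, 4 or 5 or 400 mM 6 h replicates 1, 2, 3, 4 or 5 (adjusted p from 0.0513 to 0.14), and the second without 0 mM 6 h replicate 5 or 400 mM 6 h replicate 5 (adjusted p from 0.0603 to 0.0719). The effect at 6 h also missed the threshold with library totals alone (adjusted p = 0.0548).

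In mutants the cpb-2 counts were 13, 7, 3, 9 and 30 at 0 mM and 36, 60, 24, 27 and 29 at 400 mM, overlapping. The sums were 62 and 176 reads, a ratio of 2.55 (exact 95% interval 1.90 to 3.46, counting error only), and the call in edgeR's quasi-likelihood test had log2 fold change 1.35, SE 0.453, adjusted p = 0.0287. This call was lost without mutant 0 mM replicates 2, 3 or 4 or mutant 400 mM replicate 2 (adjusted p from 0.0665 to 0.122). The sums of sperm transcripts were 6.98 to 10.7 CPM in wild type at 400 mM and 6 h, 28.3 to 455 CPM in mutants at 0 mM and 198 to 469 CPM in mutants at 400 mM. Immediately after exposure in wild type, cpb-2 went from 41 to 75 reads in all (ratio 1.59, exact 95% interval 1.07 to 2.38, counting error only), while the sperm sums were 74.00 to 379 and 77.8 to 324 CPM and overlapped. The mutant library with 60 reads of cpb-2 was the one with 469 CPM of sperm transcripts. Of the 36 sperm genes all were detected in both mutant groups and 35 in wild type at 400 mM and 6 h, and their part in the cpb-2 values was not tested.

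**Figure D4:**
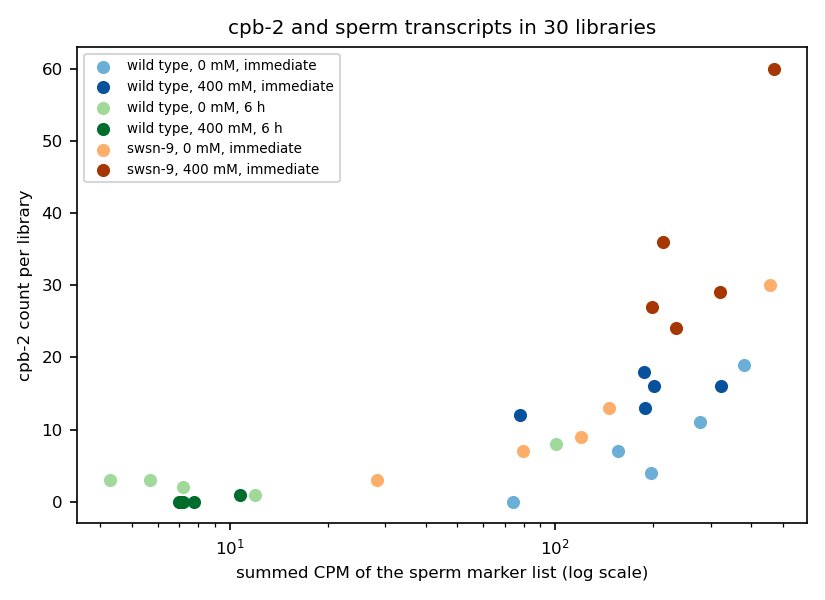
Reads of cpb-2 per library (vertical axis) against the summed CPM of 36 sperm marker genes in the same library (horizontal axis, log scale), colored by group, 30 libraries. Libraries with under 13 CPM of sperm transcripts hold at most 3 cpb-2 reads, and the highest count, 60 reads, is in the library with the highest sperm sum.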

How the data were processed

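The authors aligned 150-base paired reads of polyadenylated whole-worm RNA with STAR 2.6.0a after checks with FastQC and deposited raw counts per gene, with reads of more than 1 alignment left out. The strand setting and annotation release are not given in the sources used here. Gene symbols, lengths and coordinates were taken from Ensembl release 115 (WBcel235), in which 46484 of the 46739 identifiers were found. The 63 genes and the gene lists were chosen with earlier results of these data known.

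Counts were tested in R 4.3.3 with edgeR 4.0.16 (TMM scaling, quasi-likelihood test), on genes with a mean of at least 1 read. Wild-type comparisons used the 20 wild-type libraries and comparisons with mutants all 30, with 1 mean per group, as in the study's methods. P-values were Benjamini-Hochberg adjusted over all genes tested, with a threshold of 0.05. In each comparison, up to 6 called genes per direction with the smallest p have values per library. The highest gene of each name family by mean CPM, and in the other germline lists up to 2 genes per direction with the smallest p, may be named. Genes sharing reads with close copies or overlapping exons are uncertain, since reads were counted only where they aligned uniquely and the use of strand is not known. Alternatives were RLE and upper-quartile scaling, library totals alone (added after the data were seen), DESeq2 1.42.0, no filter or a mean of at least 10 reads, only the groups compared, all 30 libraries, a block for the replicate number, and leaving out each library. No 2 libraries of a group were copies: chi-square per gene was at least 3.87 over 60 pairs. On simulated counts for the wild-type comparison immediately after exposure (16210 genes), 45% of 100 changes of 0.3 (log2) and 98% of 100 changes of 1 were recovered.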

Additional observations from a re-analysis of the deposited data

Results flagged for a closer look

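In 8 of 180 groups of 5 libraries examined, over the genes given with values, a single library lay far from the others, and chance alone gives about 1 in 20. For cpb-2 these were wild type at 0 mM and 6 h, where replicate 5 had 0.527 CPM beside 0.0739 to 0.187, wild type at 400 mM and 6 h, where replicate 3 had 0.0519 CPM from a single read beside 0, and mutants at 400 mM, where replicate 2 had 3.33 CPM beside 1.33 to 1.83. For glh-1, replicate 1 of wild type at 400 mM immediately after exposure had 806 CPM beside 912 to 948. For meg-3, replicate 3 of wild type at 0 mM had 112 CPM beside 87.7 to 94.3. For nos-2, replicate 2 of wild type at 0 mM and 6 h had 125 CPM beside 135 to 138. For syp-1, replicate 3 of mutants at 0 mM had 53.6 CPM beside 49.1 to 50.3, and for syp-3, replicate 3 of wild type at 0 mM and 6 h had 18.5 CPM beside 21.6 to 22.8.

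The ethanol effect differed by a test of the difference itself in 4 cases. On the log2 scale it was lower at 6 h than immediately after exposure for him-8 (−0.28, SE 0.0682) and cpb-2 (−4.26, SE 1.12), higher at 6 h for cey-4 (0.21, SE 0.0566), and lower in mutants than in wild type for meg-1 (−0.24, SE 0.065).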

How the results depend on the processing

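Counts of genes called were checked under other scalings, filters, tools and fits and without each library in turn. The scale mattered most. With library totals alone, chosen after seeing the data, the counts were 38 by genotype at 0 mM (59 as reported), 46 at 400 mM (58), 23 over time (26), 4 immediately after exposure (7), 6 at 6 h (4), 5 by time (3), 13 in mutants (12) and 0 by genotype (1, with 11 genes at an unadjusted p under 0.05), and 37, 44, 23, 2, 2, 2, 5 and 0 of these genes were shared with the reported calls. Under the other alternatives the genotype and time counts ran from 55 to 60, 55 to 58 and 25 to 32, and without single libraries from 53 to 60, 56 to 59 and 20 to 31. At 6 h the count of 4 became 7 with upper-quartile scaling, 2 with no filter, 8 with a mean of at least 10 reads and 8 with DESeq2. For ethanol by time the count of 3 became 5 with upper-quartile scaling and 6 with DESeq2, and for ethanol by genotype the count of 1 became 0 with only the groups compared, where 9 genes had an unadjusted p under 0.05. Leaving out single libraries gave 3 to 7 genes immediately after exposure, 0 to 7 at 6 h, 1 to 6 by time, 10 to 28 in mutants and 0 to 7 by genotype. With the replicate number as a block, the counts were 12 immediately after exposure, 14 at 6 h and 8 by time. The labels do not say what a replicate number marks, and not every pair deviated together, so the numbers were not taken as pairs. Over 15 pairs the mean correlation of deviations was 0.18 (−0.125 to 0.518), 10 were over 0.1, and 9 correlated best with their own number. If the numbers mark the collection days named in the study's methods, the reported ethanol counts leave a pairing out. Of the 51 fold changes given with an adjusted p as calls, 28 passed in every alternative and 23 missed the threshold at least once (over 981 values), and none changed direction. With 5 libraries per group, changes of about 0.3 on the log2 scale were recovered in under 60% of simulated cases, which were not limited to the members. The median SE of the members was 0.0512 in wild type immediately after exposure and 0.0508 by genotype at 0 mM. How far a member not called may still differ depended on the gene. Immediately after exposure in wild type, the 95% interval was −0.0873 to 0.1005 for puf-11 and −0.855 to 0.0612 for him-4.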

Other observations

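Of the genes with at least 100 reads, 15.4% rose and 11.6% fell over 6 h at 0 mM in wild type. In the other germline lists, 6 of 35 mRNA regulators rose, among them lst-1, which acts with the FBF proteins in stem cells (0.24), and rnp-8, a partner of the poly(A) polymerase GLD-2 (0.30), while pab-1, a poly(A)-binding protein, fell (−0.28). Of 28 small RNA genes 4 rose and 2 fell, the Argonaute gene wago-4 at −0.28 and prde-1 at −0.26. Of 45 further meiosis genes 7 rose, including the nuclease genes mre-11 (0.20) and slx-1 (0.26), and the meiotic kinase gene chk-2 fell (−0.32). In mutants exposed to ethanol, 10 of the 35 mRNA regulators fell and sygl-1, which also acts with the FBF proteins, rose (0.22). Of the 28 small RNA genes 2 rose there, mut-2 (0.17) and ekl-1 (0.16), and 3 fell, among them hrde-1, a nuclear Argonaute of the germ line (−0.25), and ergo-1 (−0.23). Among the 45 further meiosis genes 2 rose and 6 fell in these mutants. All these values are log2 fold changes past an adjusted p of 0.05 in edgeR's quasi-likelihood test, from lists compiled with earlier results known.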
